A study of Mus musculus with 4 samples.

Results

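The genes described here belong to the cholesterol pathway of mouse embryonic stem cells (ESCs). They are Hmgcs1, Idi1, Fdft1, Sqle, Lss, Cyp51 and Dhcr7, which encode enzymes of cholesterol synthesis, and Insig1, which encodes a sterol-dependent brake on that pathway. They were taken as a list of gene names and looked up by gene identifier in the deposited expression tables. Of the 8 named genes, 7 were matched among the 37620 genes of the raw count table, and all 7 were among the 15462 genes kept in the normalized table. Hmgcs1 could not be matched to an identifier through the annotation used here, and no expression value is given for it. No receptor or carrier of cholesterol uptake is among the 8 genes, so uptake is described below from a separate list.

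RNA-seq was performed on 4 libraries of R1 mouse ESCs, a line of the 129/Sv strain, with 1 library per condition. WT cells and cells in which Cripto (gene symbol Tdgf1), a cell-surface co-receptor of Nodal signalling, was knocked out were either kept in serum with leukaemia inhibitory factor (serum/LIF) or grown for 6 days in serum-free N2B27 medium with bFGF and 20 ng/ml Activin A (F/A). The F/A protocol takes naive ESCs towards epiblast stem cells (EpiSCs), the primed state of pluripotency. The knockout is represented by 1 library per medium, and which of the study's knockout clones was sequenced is not given in the sources used here. With a single library per condition no difference could be tested against replicate spread, and each ratio is given with a 95% counting interval that covers counting error only. Genotype, clone and library cannot be told apart, nor can medium, time in culture and cell state. In bulk samples, fewer cells expressing a gene and less RNA per cell cannot be told apart either.

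The libraries held 15230856 to 17315442 counts. Nearly every count of the F/A Cripto KO library was even, with 3 odd genes (0.016% of its genes with a count) against 53.1 to 53.6% in the other 3 libraries, so its counts were halved before intervals were computed. In WT, Tdgf1 had 18714 counts in serum/LIF and 1572 in F/A, and in Cripto KO it had 945 and 86. Summed counts of 10 naive ESC markers scaled to the library total (cpm) were 4557 and 4110 in serum/LIF and 117 and 92.1 in F/A (WT, then Cripto KO), whereas 10 EpiSC markers summed to 203 and 266 cpm in serum/LIF and 1401 and 689 in F/A. Of the EpiSC markers, Fgf5 had 2206 and 394 counts in F/A and T had 8748 and 5598, but Pou3f1 had 15 and 10. T thus gave 8748 of 21332 summed EpiSC marker counts in F/A WT and 5598 of 10840 in F/A Cripto KO. Otx2 and Lefty2 were lower in F/A in Cripto KO, at 678 and 238 counts against 1023 and 1224 in serum/LIF. In WT they had 2375 and 571 counts in F/A against 1307 and 442. The other EpiSC markers were higher in F/A in both genotypes. Pou5f1, a factor that EpiSCs also need, had 1810 and 1216 counts in F/A against 26857 and 21995 in serum/LIF. Summed markers of some other cell types were also higher in F/A, with 8 mesoderm markers at 167 and 285 cpm against 5.83 and 5.90. The 11 trophoblast markers summed to 1378 and 1630 cpm against 90.5 and 63.7, mostly from Krt8, at 19493 and 21894 counts in F/A. Krt7, Cdx2, Hand1 and Gata3 were also higher in F/A in both genotypes. Tfap2c, Ascl2 and Gata2 were lower in both, with Tfap2c at 1191 and 705 counts in serum/LIF and 110 and 160 in F/A. Elf5, Prl3d1 and Tpbpa had 0 to 2 counts in every library. Fibroblast markers (7 genes) summed to 124, 82.7, 131 and 236 cpm in serum/LIF WT, F/A WT, serum/LIF Cripto KO and F/A Cripto KO, and 10 endoderm markers to 20.2, 124, 14.5 and 109, with Afp at 0 in every library. The 5 matched neural markers summed to 98.4, 349, 111 and 315 cpm in the same library order. Most of their F/A counts were from Nes, at 4460 and 4210, while Tubb3 was lower in F/A, at 221 and 282 counts against 1189 and 1232. The part of these cell populations in the results below was not tested.

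Cells build cholesterol from acetyl-CoA through mevalonate, the isoprenoid units, squalene and lanosterol. When membranes of the endoplasmic reticulum run short of sterol, the SREBP transcription factors are carried to the Golgi, cut free and sent to the nucleus, where they switch on the genes of sterol synthesis and uptake. Insig proteins hold the SREBP escort Scap in place when sterol is plentiful, and Insig1 is itself an SREBP target. Sterol response elements (SREs) in promoters bind SREBP, commonly next to sites for the cofactors NF-Y and Sp1.

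Promoter windows were available for 6 of the 8 genes, from 250 bases before to 50 bases after the annotated start. The windows, from RefSeq on GRCm38.p6, are shown for the 3 genes that passed 2-fold in the WT transition and for Lss, which did not, to set motif content beside expression. Capitals mark CCAAT, the core of NF-Y sites, and any match to the SRE motif TCACNCCAC with at most 1 mismatch, on either strand. All are written 5′ to 3′ in the direction of the gene.
Idi1, chr13:8885356-8885655, plus strand: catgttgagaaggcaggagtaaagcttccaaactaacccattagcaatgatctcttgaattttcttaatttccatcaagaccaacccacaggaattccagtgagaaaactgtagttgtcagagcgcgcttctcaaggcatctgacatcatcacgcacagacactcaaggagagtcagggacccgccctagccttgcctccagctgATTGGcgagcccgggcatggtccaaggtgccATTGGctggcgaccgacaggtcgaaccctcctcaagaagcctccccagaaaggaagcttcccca
Cyp51, chr5:4104648-4104947, minus strand: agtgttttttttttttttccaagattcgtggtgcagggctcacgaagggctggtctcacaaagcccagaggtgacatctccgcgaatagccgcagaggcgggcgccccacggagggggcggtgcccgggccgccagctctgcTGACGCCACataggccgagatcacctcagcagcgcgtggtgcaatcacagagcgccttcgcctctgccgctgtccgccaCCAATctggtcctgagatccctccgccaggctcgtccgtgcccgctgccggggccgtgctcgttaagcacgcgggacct
Insig1, chr5:28071162-28071461, plus strand: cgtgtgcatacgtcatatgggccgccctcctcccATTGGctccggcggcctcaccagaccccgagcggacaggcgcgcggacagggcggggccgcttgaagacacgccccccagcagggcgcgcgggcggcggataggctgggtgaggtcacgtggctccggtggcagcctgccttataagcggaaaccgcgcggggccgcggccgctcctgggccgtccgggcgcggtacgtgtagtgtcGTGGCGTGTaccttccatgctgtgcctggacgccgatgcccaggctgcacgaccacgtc
Lss, chr10:76531355-76531654, plus strand: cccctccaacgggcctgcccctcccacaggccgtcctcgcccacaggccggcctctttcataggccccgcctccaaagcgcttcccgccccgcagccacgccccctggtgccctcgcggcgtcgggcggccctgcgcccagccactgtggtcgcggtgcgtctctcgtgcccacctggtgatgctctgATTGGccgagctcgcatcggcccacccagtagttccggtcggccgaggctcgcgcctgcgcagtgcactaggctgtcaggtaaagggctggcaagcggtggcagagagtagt
These windows differ in SRE-like letters, which are present in Cyp51 and Insig1 and are not in these windows of Idi1 and Lss, while CCAAT is found in each of them.

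Among the 6 genes with a window, all 6 held CCAAT and all 6 held the Sp1 core GGGCGG in at least 1 window, against 41.1% and 38.2% of 27025 genes with at least 1 window. An SRE with at most 1 mismatch was found in 4 of them, Hmgcs1, Cyp51, Insig1 and Dhcr7 (in 1 of its 3 windows), and in 26.7% of all genes. The exact SRE letters were found in Hmgcs1 alone of these 6 genes and in 1.44% of all genes. Counted by window, these shares over all 32851 windows were 37.4% for CCAAT, 35.7% for GGGCGG, 24.2% for an SRE with at most 1 mismatch and 1.24% for the exact letters. On the wider list of synthesis enzymes, 15 of 16 genes with a window held CCAAT and 15 of 16 held GGGCGG, and 7 of 16 held an SRE with at most 1 mismatch. A match to these letters is a description and does not show binding. Of 167 kept genes with an exact SRE in a window, 21.6% were at least 2-fold higher in the WT transition, close to the share of 22.1% among all kept genes.

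Idi1, on chr13:8884852-8891641 (NCBIM37, plus strand), encodes the isomerase that interconverts the activated isoprene units. Its counts were low, at 115 to 257 per library. Its quantile-normalized value was 106 in serum/LIF WT, 262 in F/A WT, 124 in serum/LIF Cripto KO and 224 in F/A Cripto KO. Both F/A libraries lay above both serum/LIF libraries. The F/A to serum/LIF ratio was 2.48 in WT (counting interval 2.03 to 3.19) and 1.80 in Cripto KO (1.501 to 2.56). The ratio of Cripto KO to WT was 0.853 in F/A and 1.17 in serum/LIF, with intervals that include 1 in both media (0.669 to 1.06 and 0.838 to 1.43).

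Fdft1 (squalene synthase) and Sqle (squalene epoxidase, a rate-limiting step of the sterol branch) commit isoprenoids to sterols. Fdft1 lies on chr14:63763990-63796630, minus strand, and Sqle on chr15:59146632-59162747, plus strand. Fdft1 stood at 1149 in serum/LIF WT, 1035 in F/A WT, 862 in serum/LIF Cripto KO and 1240 in F/A Cripto KO. The serum/LIF and F/A values of Fdft1 overlapped across genotypes, and the F/A to serum/LIF ratio was 0.901 in WT (0.893 to 1.06) and 1.44 in Cripto KO (1.36 to 1.68). Fdft1 overlaps Ctsb, a cathepsin gene on the opposite strand with 2059 to 3095 counts, and the strand setting of the counting is not given in the sources used here, so reads from the shared stretch cannot be assigned with certainty. For Sqle the normalized values were 1184 in serum/LIF WT, 1527 in F/A WT, 1036 in serum/LIF Cripto KO and 1620 in F/A Cripto KO, with both F/A libraries above both serum/LIF libraries. Its F/A to serum/LIF ratio was 1.29 in WT (1.28 to 1.49) and 1.56 in Cripto KO (1.47 to 1.77).

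Lss (lanosterol synthase) closes the first sterol ring system, and Cyp51 removes the methyl group at the next step. They lie on chr10:75994333-76019883, plus strand, and chr5:4081145-4104746, minus strand. Lss stood at 805 in serum/LIF WT, 943 in F/A WT, 1028 in serum/LIF Cripto KO and 1035 in F/A Cripto KO. Its F/A to serum/LIF ratio was 1.17 in WT (1.15 to 1.39) and 1.01 in Cripto KO (0.946 to 1.17). Its direction depended on the processing, since removing a trend over the longest transcript length turned the log2 change from 0.23 to −0.37 in WT and from 0.01 to −0.27 in Cripto KO, and that of Fdft1 in WT from −0.15 to 0.04. The smallest Lss value was that of serum/LIF WT, and the ratio of Cripto KO to WT in serum/LIF was 1.28 (1.17 to 1.41). Lss overlaps 4930483K19Rik, a lincRNA gene on the opposite strand with 77 to 100 counts.

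Of the 7 genes, Cyp51 had the largest F/A to serum/LIF ratio in Cripto KO. Its normalized value stood at 870 in serum/LIF WT, 1973 in F/A WT, 772 in serum/LIF Cripto KO and 2749 in F/A Cripto KO. Both F/A libraries lay above both serum/LIF libraries, with the F/A Cripto KO library highest. The F/A to serum/LIF ratio was 2.27 in WT (2.23 to 2.62) and 3.56 in Cripto KO (3.31 to 3.96). Cripto KO stood above WT in F/A, at a ratio of 1.39 (1.24 to 1.43), and below it in serum/LIF, at 0.887 (0.805 to 0.979).

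Dhcr7 (7-dehydrocholesterol reductase), on chr7:151009050-151034315, plus strand, catalyses a last step of the pathway. Its values were 368 in serum/LIF WT, 617 in F/A WT, 301 in serum/LIF Cripto KO and 813 in F/A Cripto KO, in the same order of libraries as Cyp51. The F/A to serum/LIF ratio was 1.68 in WT (1.53 to 1.99) and 2.71 in Cripto KO (2.49 to 3.39). Against WT, Cripto KO stood at 1.32 (1.15 to 1.49) in F/A and 0.817 (0.673 to 0.918) in serum/LIF.

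Insig1, on chr5:28397952-28405201, plus strand, is the regulator among the 8 genes. Its values were 528 in serum/LIF WT, 1108 in F/A WT, 599 in serum/LIF Cripto KO and 1062 in F/A Cripto KO. The genotypes were close in both media, with Cripto KO to WT ratios of 0.958 in F/A (0.843 to 1.04) and 1.13 in serum/LIF (0.999 to 1.27). The F/A to serum/LIF ratio was 2.10 in WT (2.02 to 2.48) and 1.77 in Cripto KO (1.66 to 2.10).

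**Figure D1:**
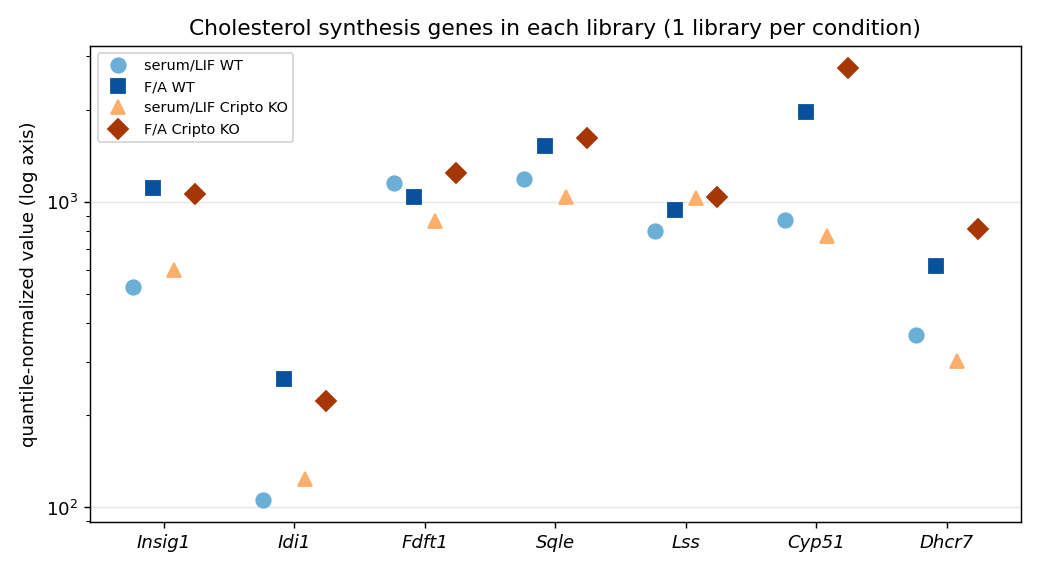
Quantile-normalized value (log axis) of the 7 measured genes, with 1 symbol per library and no error bar because each condition has 1 library. Idi1, Sqle, Cyp51, Dhcr7 and Insig1 have both F/A libraries above both serum/LIF libraries, Lss is lowest in serum/LIF WT, and Fdft1 is higher in F/A in Cripto KO cells alone.

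Levels can be compared between genes only per length, here as normalized value per kilobase of annotated exons. On this scale Fdft1 was highest in serum/LIF (402 in WT, 301 in Cripto KO) and Cyp51 in F/A (460 and 641). Idi1 was lowest in 3 libraries, at 36.9 in serum/LIF WT, 43.3 in serum/LIF Cripto KO and 78.1 in F/A Cripto KO, and Lss was lowest in F/A WT, at 87.4 beside 91.5 for Idi1. The order depends on the length used: per kilobase of the longest transcript Lss stood at 135 in F/A WT and Idi1 was lowest in all 4 libraries, while Fdft1 stayed highest in serum/LIF and Cyp51 in F/A. The order from high to low in serum/LIF WT was Fdft1, Sqle, Cyp51, Insig1, Dhcr7, Lss and Idi1, and in F/A WT it was Cyp51, Insig1, Fdft1, Sqle, Dhcr7, Idi1 and Lss. In Cripto KO it was Fdft1, Insig1, Sqle, Cyp51, Lss, Dhcr7 and Idi1 in serum/LIF, and Cyp51, Fdft1, Insig1, Sqle, Dhcr7, Lss and Idi1 in F/A. Neighbours whose counting intervals could not separate them were Sqle, Cyp51 and Insig1 in serum/LIF WT, Sqle and Cyp51 in serum/LIF Cripto KO, Idi1 and Lss in both F/A libraries, and Fdft1 and Insig1 in F/A Cripto KO. These orders and intervals use the annotated exon length. Per kilobase of the longest transcript, Sqle stood above Insig1 in serum/LIF Cripto KO, at 232 and 226.

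Across the 7 measured genes, F/A stood at least 2-fold above serum/LIF for 3 in WT (Idi1, Cyp51 and Insig1) and for 2 in Cripto KO (Cyp51 and Dhcr7), and none was at least 2-fold lower in either genotype. Of all kept genes, 22.1% were at least 2-fold higher and 20.9% lower in the WT transition, and 19.9% and 19.4% in the Cripto KO transition. The median log2 change of the 7 genes was 0.75 in WT and 0.83 in Cripto KO, against −0.07 for all kept genes in each. Counted without a threshold, 6 of 7 were above 0 in WT, with Fdft1 at −0.15, and 7 of 7 in Cripto KO, where Lss stood at 0.01. In WT 4 of 7 fell within the middle 50% of all kept genes and 3 of 7 above it, and in Cripto KO 3 of 7 fell within it and 4 of 7 above it. Both transitions rest on separate libraries, but each shares its libraries with the genotype comparisons.

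No member reached 2-fold between the genotypes. In F/A, where 4.57% of all kept genes were at least 2-fold higher in Cripto KO and 5.69% lower, the log2 changes of the 7 genes ran from −0.23 (Idi1) to 0.48 (Cyp51), with a median of 0.13. In serum/LIF, where 2.86% were higher and 2.73% lower, they ran from −0.41 (Fdft1) to 0.35 (Lss), with a median of −0.17. The shares among all kept genes depended on the scaling, with 44.5% of the genes past 2-fold in F/A being higher after quantile normalization and 32.4 to 34.2% after scaling by library total, TMM or DESeq2 factors, and 51.2% against 38.7 to 39.9% in serum/LIF. All 7 genes kept their sign in both media under those scalings.

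**Figure D2:**
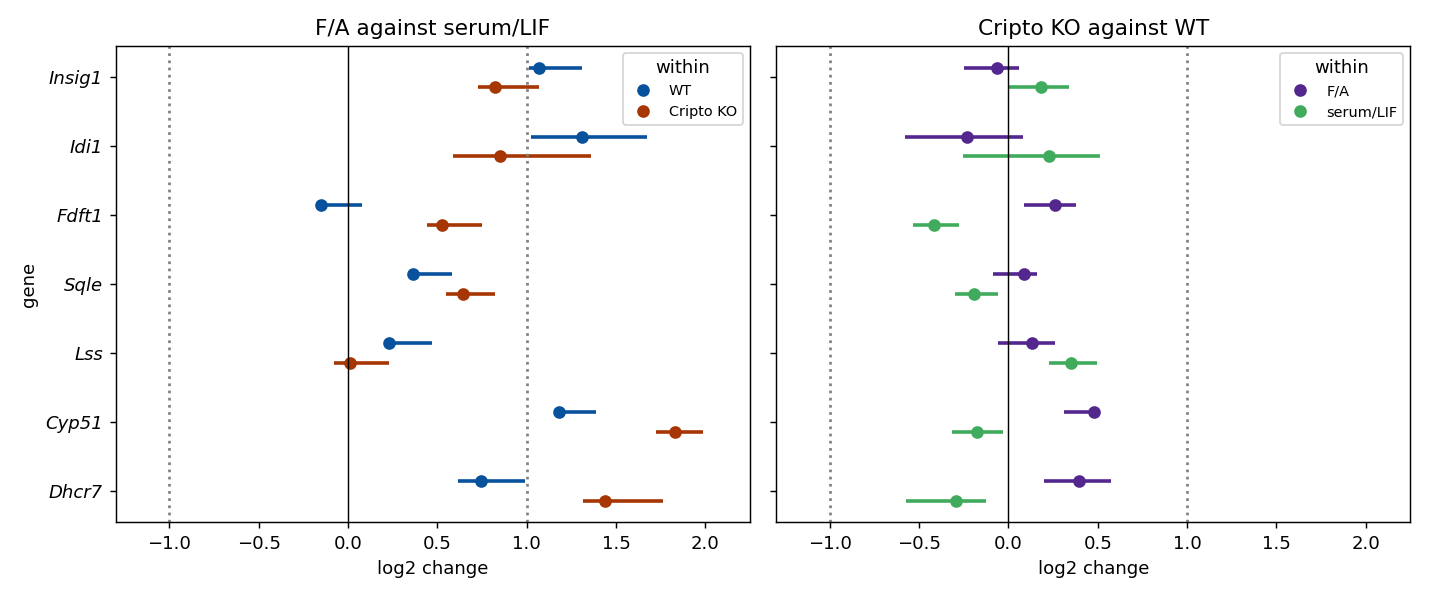
Log2 change of each measured gene between the media within each genotype (left) and between the genotypes within each medium (right). Dots are changes of the normalized values, bars are 95% counting intervals from raw counts scaled by library totals, which is why a dot can lie at the edge of its bar, and dotted lines mark 2-fold. Cyp51 and Dhcr7 in Cripto KO lie farthest to the right on the left side, and no dot passes 2-fold on the right side.

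The transition was larger in Cripto KO than in WT for Fdft1, Sqle, Cyp51 and Dhcr7 and smaller for Idi1, Lss and Insig1. The difference of the log2 changes, Cripto KO minus WT, was 0.69 ± 0.15 for Dhcr7, 0.67 ± 0.10 for Fdft1, 0.65 ± 0.09 for Cyp51 and 0.28 ± 0.09 for Sqle (counting SE). It was −0.46 ± 0.25 for Idi1, −0.24 ± 0.11 for Insig1 and −0.22 ± 0.10 for Lss. Differences of this size were common among all kept genes. Of these, 30.4% had one at least as large as that of Dhcr7, and 31.4% and 32.8% one at least as large as those of Fdft1 and Cyp51. All kept genes include genes with few counts, whose differences carry more counting error, and the shares were not matched by count. No replicate was available to test them.

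**Figure D3:**
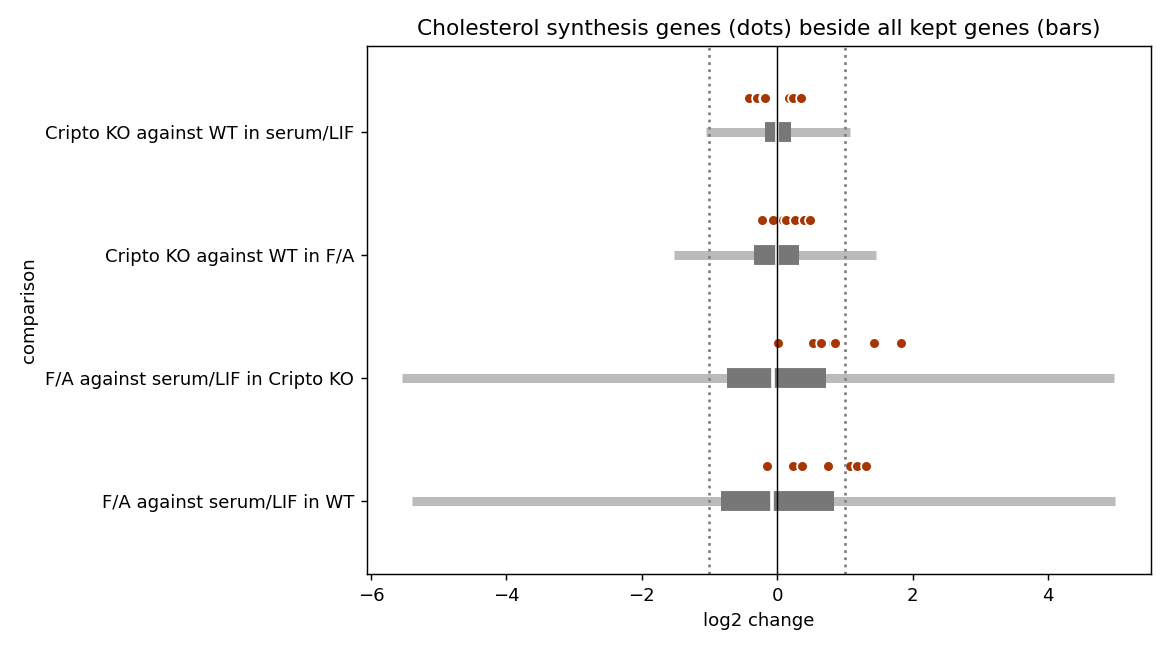
Log2 change of the 7 measured genes (dots) above the distribution of all 15462 kept genes in each comparison, drawn as the middle 50% (dark bar), the middle 95% (light bar) and the median (white tick), with dotted lines at 2-fold. Most dots lie to the right of the median in both transitions, with Fdft1 to its left in WT, and all lie well inside the light bars in all 4 comparisons.

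The wider list of synthesis enzymes had 20 genes, of which 19 were measured, 6 of them described above. In WT 4 of 19 were at least 2-fold higher in F/A and 0 lower, and in Cripto KO 5 of 19 were higher and 0 lower. Leaving out the 6 gave 2 of 13 in WT and 3 of 13 in Cripto KO, with medians of 0.42 and 0.62. The shares of all kept genes at least 2-fold higher were 22.1% in WT and 19.9% in Cripto KO. Msmo1, a sterol demethylase, had a ratio of 2.29 (2.19 to 2.71) in WT and 2.09 (1.96 to 2.52) in Cripto KO. Hsd17b7, which acts in the same demethylation, was at 2.08 (1.89 to 2.48) in WT. In Cripto KO, Fdps (farnesyl diphosphate synthase) reached 2.83 (2.62 to 3.21) and Tm7sf2, a sterol reductase with 72 counts in serum/LIF, 2.48 (1.92 to 3.65). The remaining enzymes lay between log2 changes of −0.70 and 0.89 in WT and −0.61 and 0.99 in Cripto KO, with Ebp, a sterol isomerase, lowest in both. Around mevalonate, at the head of the pathway, Acat2, Mvk and Mvd had log2 changes of −0.21, −0.35 and −0.26 and Pmvk one of 0.17 in WT, while in Cripto KO Acat2, Mvk, Mvd and Pmvk stood at 0.58, 0.62, 0.34 and 0.57.

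**Figure D4:**
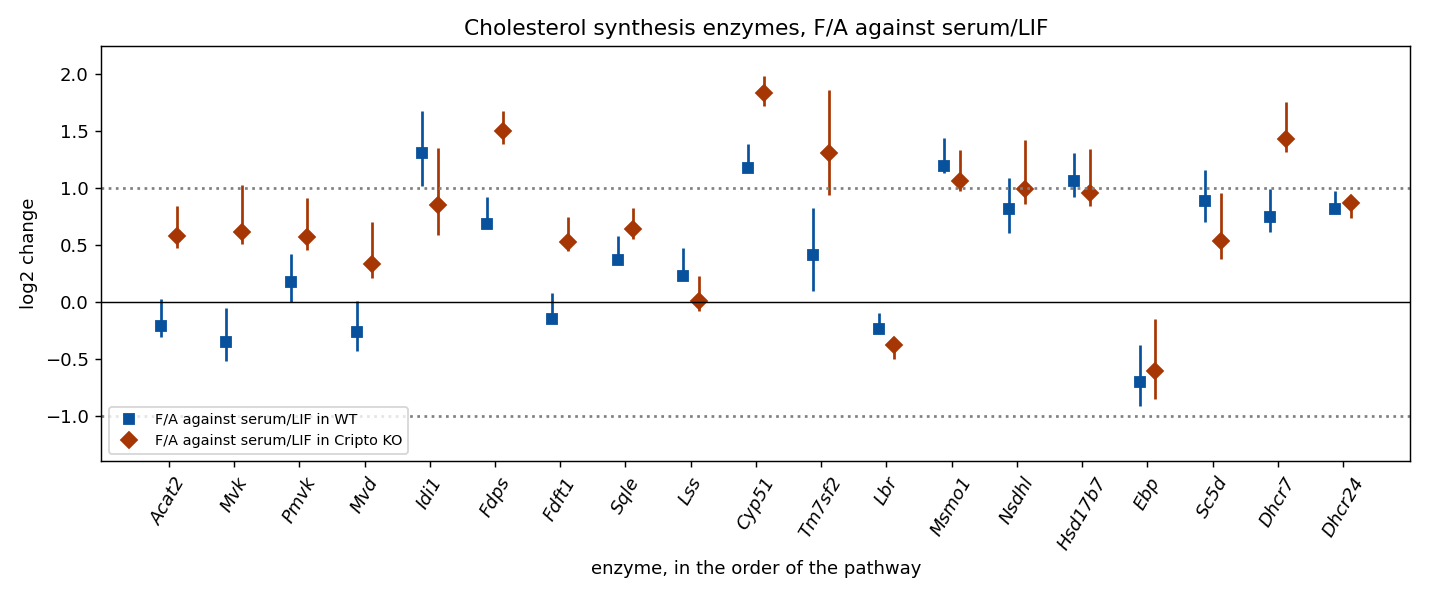
Log2 change, F/A against serum/LIF, of 19 measured synthesis enzymes in the order of the pathway, for WT (squares) and Cripto KO (diamonds), with 95% counting intervals from raw counts and dotted lines at 2-fold. Cyp51 and Msmo1 lie above the upper dotted line in both genotypes, and Ebp and Lbr lie below 0 in both.

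The SREBP machinery to which Insig1 belongs was described by 12 measured genes. F/A was at least 2-fold higher for 3 of 12 in WT and 3 of 12 in Cripto KO, and 1 of 12 was lower in each. Of all kept genes, 22.1% were at least 2-fold higher in the WT transition and 19.9% in the Cripto KO transition. The shares at least 2-fold lower were 20.9% and 19.4%. Srebf2, the SREBP that mainly drives cholesterol synthesis, had a ratio of 2.61 in WT (2.56 to 2.82) and 2.93 in Cripto KO (2.80 to 3.11). Srebf1, the SREBP of fatty acid synthesis, stood at 2.01 (1.99 to 2.33) and 2.12 (1.98 to 2.39). Ube2g2, a ubiquitin-conjugating enzyme of the endoplasmic reticulum, passed 2-fold in Cripto KO, at 2.02 (1.89 to 2.37). Erlin1, a membrane protein of the endoplasmic reticulum that takes part in protein degradation there, was lower, at 0.298 (0.278 to 0.359) in WT and 0.420 (0.381 to 0.523) in Cripto KO. Insig2, the close relative of Insig1, had log2 changes of −0.78 and −0.79, opposite in sign to the 1.07 and 0.83 of Insig1.

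Among uptake and transport genes, the lipoprotein receptors Vldlr and Lrp8 were several-fold higher in F/A in both genotypes. Of 17 genes described here, 16 were kept, 7 of 16 were at least 2-fold higher in WT with 0 lower, and 6 of 16 were higher in Cripto KO with 1 lower. The median log2 changes were 0.73 and 0.65. Among all kept genes, 22.1% were at least 2-fold higher and 20.9% lower in WT, and 19.9% and 19.4% in Cripto KO. Vldlr had 344 counts in serum/LIF WT, 2654 in F/A WT, 539 in serum/LIF Cripto KO and 2704 in F/A Cripto KO, which gave ratios of 8.31 (7.84 to 9.84) in WT and 5.09 (4.69 to 5.74) in Cripto KO. Lrp8 had 129, 953, 143 and 784 counts in the same libraries, and ratios of 8.18 (6.98 to 10.2) and 5.20 (4.67 to 6.91). For both receptors the F/A libraries lay above both serum/LIF libraries. Lrp1, a large endocytic receptor, was at 2.86 (2.69 to 2.89) and 2.63 (2.55 to 2.78). With the trend over the longest transcript length removed, the log2 change of Lrp1 was 0.70 in WT, under 2-fold, and 1.27 in Cripto KO. Npc1, also counted as higher in WT at a log2 change of 1.14, likewise fell under 2-fold. It stood at 0.81 with the trend over median length removed and at 0.74 with that over the longest. Stard4, a cytosolic sterol carrier, was at 2.65 (2.503 to 3.14) and 2.98 (2.76 to 3.6997). Lipa, the lysosomal lipase that frees cholesterol from lipoprotein esters, was at 3.01 (2.56 to 3.65) and 2.99 (2.73 to 3.98). Gramd1c, a carrier of sterol from the plasma membrane, had 20 and 15 counts in serum/LIF and ratios of 4.92 (2.72 to 7.75) and 4.75 (2.40 to 9.01), while its relative Gramd1b was at 0.452 (0.388 to 0.594) in Cripto KO.

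The list of efflux, ester storage and oxysterol genes had 17 genes, of which 12 were kept. In WT 2 of 12 were at least 2-fold higher in F/A and 4 of 12 lower, and in Cripto KO 1 of 12 was higher and 6 of 12 lower, with medians of −0.34 and −0.96. The shares of all kept genes were 22.1% higher and 20.9% lower in WT, and 19.9% and 19.4% in Cripto KO. In WT the higher genes of the list numbered 1 under scaling by library total, TMM or DESeq2 factors and with 5 added, and the lower genes 2 with 5 added. The higher gene lost was Lcat, at 15 and 25 counts, with a ratio of 2.19 (0.961 to 3.87). Soat1, which esterifies cholesterol for storage, had a ratio of 5.15 (5.01 to 5.90) in WT and 3.34 (3.13 to 3.69) in Cripto KO, and its relative Soat2 0.389 (0.291 to 0.535) and 0.0962 (0.0405 to 0.174). The sterol exporters Abca1 and Abcg1 stood at 0.496 (0.445 to 0.614) and 0.187 (0.148 to 0.252) in WT and at 0.128 (0.104 to 0.166) and 0.0848 (0.0439 to 0.132) in Cripto KO. Apoe, which carries the exported lipid, was at 0.5004 (0.490 to 0.525) in WT, just short of 2-fold, and at 0.393 (0.368 to 0.402) in Cripto KO, and Cyp7b1, an oxysterol hydroxylase, at 0.485 (0.306 to 0.711) in WT. This was the list with the most genes past 2-fold between the genotypes in serum/LIF, 3 of 12, among them Abca1, at 493 counts in WT and 1246 in Cripto KO, a ratio of 2.71 (2.42 to 2.99). The others rested on few counts, Nr1h3 at 16 and 34 with a ratio of 2.71 (1.22 to 4.39) and Ch25h at 16 and 26 with a ratio of 2.04 (0.894 to 3.45). Among all kept genes, 2.86% were at least 2-fold higher in Cripto KO in serum/LIF. In F/A, Soat2 and Abcg1 were lower in Cripto KO, at 0.339 (0.127 to 0.589) and 0.489 (0.227 to 0.754). These ratios rested on low counts, 18 in Cripto KO and 60 in WT for Soat2 and 30 and 68 for Abcg1. With 5 added to each value, 1 gene of the list was lower there. Among all kept genes, 5.69% were at least 2-fold lower in Cripto KO in F/A.

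Branches that draw on the same mevalonate (10 genes) had 1 higher and 1 lower in WT and 0 higher and 1 lower in Cripto KO. The shares of all kept genes were 22.1% higher and 20.9% lower in WT, and 19.9% and 19.4% in Cripto KO. Nus1, a subunit of the dolichol-making enzyme, was at 2.20 (2.17 to 2.58) in WT, and Fntb, a subunit of farnesyltransferase, at 0.379 (0.360 to 0.449) in WT and 0.461 (0.428 to 0.559) in Cripto KO. With the trend over median transcript length removed, Fntb no longer passed 2-fold in either genotype, at log2 changes of −0.99 and −0.96. With the trend over the longest transcript length removed, it passed 2-fold in WT, at −1.17, but not in Cripto KO, at −0.96. Fatty acid synthesis (17 genes), the other arm under SREBP, had 4 higher and 4 lower in WT and 6 higher and 3 lower in Cripto KO. The shares of all kept genes beside them are those given for the branches. The desaturase Scd2 was at 4.64 (4.52 to 4.79) and 4.80 (4.58 to 4.88), and Fads2, a desaturase of polyunsaturated fatty acids, at 3.01 (2.91 to 3.54) and 4.80 (4.42 to 5.64). Elovl1, an elongase, was at 3.29 (2.79 to 3.98) and 2.86 (2.62 to 3.83), and the desaturase Scd1 at 2.26 (2.24 to 2.56) and 2.83 (2.64 to 3.10). In Cripto KO the desaturase Fads1 and malic enzyme Me1 also passed 2-fold, at 2.69 (2.52 to 2.94) and 2.05 (1.87 to 2.52). Lower in both genotypes were Acacb, which makes malonyl-CoA at the mitochondrion, at 0.166 (0.14 to 0.221) and 0.144 (0.107 to 0.197), and Pnpla3, a lipid hydrolase, at 0.342 (0.269 to 0.458) and 0.30 (0.179 to 0.471). Acss2, which makes acetyl-CoA from acetate, was lower in WT, at 0.418 (0.345 to 0.545). Thrsp was also counted as lower in both genotypes, from 28 counts in serum/LIF and 0 in F/A in WT and 20 and 4 in Cripto KO. Between the genotypes in F/A it was the 1 gene of this list past 2-fold, on those 0 and 4 counts. Among all kept genes, 4.57% were at least 2-fold higher in Cripto KO in F/A. The lists were chosen by function, and their counts are set beside the shares of all kept genes given above. At least 2-fold higher in both transitions were 16.6% of all kept genes. This share was 10.5% for synthesis enzymes, 0% for the mevalonate branches, 16.7% for SREBP regulation and 37.5% for uptake and transport. It was 8.33% for efflux, esters and oxysterols and 23.5% for fatty acid synthesis.

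**Figure D5:**
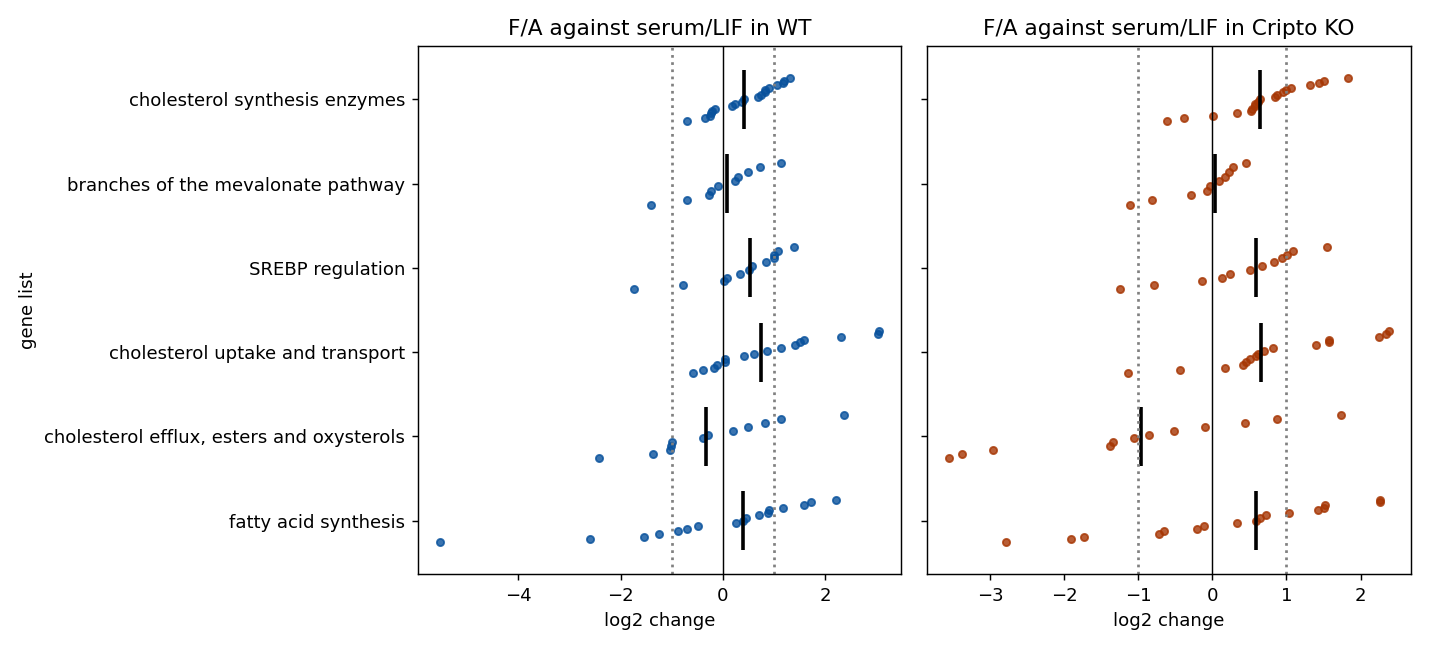
Log2 change, F/A against serum/LIF, of every kept gene on 6 lists of the cholesterol and fatty acid pathways, for WT (left) and Cripto KO (right). Each dot is 1 gene, the black bar is the list's median and dotted lines mark 2-fold. Uptake and transport has its median farthest to the right in both panels, level with synthesis in Cripto KO, and efflux, esters and oxysterols has its median below 0 in both.

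The genes whose pattern over the 4 libraries was most like the mean of the 7 were sought among 9542 genes with a mean normalized value of at least 200, by Euclidean distance between log2 values centred on each gene's own mean. The nearest were Eml3 (distance 0.0297), Pskh1 (0.0339), Eci2 (0.0344), Zbed3 (0.0476) and Tmem128 (0.0480). Each of the 7 genes is part of that mean, and their own distances ran from 0.278 for Insig1 and 0.295 for Sqle to 0.715 for Lss and 0.771 for Cyp51. Of the genes compared, 4.28% lay nearer to the mean than Insig1, 5.08% nearer than Sqle, 9.56% nearer than Dhcr7 and 12.1% nearer than Idi1, against 23.2% for Fdft1, 27.1% for Lss and 30.7% for Cyp51.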

How the data were processed

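RNA-seq was performed on 4 mouse ESC libraries. Reads were aligned to NCBIM37 (mm9) by the authors with TopHat2 (version 2.0.13) and read counts per gene were deposited after HTSeq (version 0.6.1p1). The authors quantile-normalized these counts and removed genes low in all samples, and the deposited normalized signal is a read count on that scale, not per length. A quantile normalization computed anew matched 100% of the deposited values within 1.

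Log2 changes were computed from the normalized signal, with 0 replaced by 0.5, and genes past 2-fold were counted. Counting intervals are 95% Clopper-Pearson intervals of raw counts scaled by library totals. Totals were 15230856 to 17315442 counts. A detection limit of 3 counts was used (6 in the even library). Gene names and coordinates came from GENCODE M1 on NCBIM37, which named 98.9% of the raw genes. Promoters came from RefSeq (GRCm38.p6), and coordinates of the 2 builds were not mixed. Members and lists were chosen with earlier results of these data known, and some genes of the lists are not reported here and were left out of the counts of the lists. Named from each list were genes past 2-fold, at most 6 per direction, with at least 50 counts in the higher library. Others named, with values, were chosen after their values were seen. The scripts (Python 3.11.15, numpy 2.4.6, scipy 1.17.1, pandas 2.3.3, R 4.3.3) were tested on simulated data. edgeR 4.0.16 and DESeq2 1.42.0 gave scaling factors only.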

Additional observations from a re-analysis of the deposited data

Results flagged for a closer look

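Some genes of the cholesterol and fatty acid lists had log2 changes of opposite sign in 2 settings, each with a counting interval that excludes 1, and none of these differences was tested. The intervals cover counting error only. The gap between the 2 values of a pair is the same quantity as the difference of the transitions described above. For Dhcr7, Fdft1 and Cyp51, 30.4 to 32.8% of all kept genes, not matched by count, had one at least as large. The share of all kept genes with such a change of sign was not counted. For Cripto KO against WT the values in F/A and in serum/LIF were 0.26 and −0.41 for Fdft1, 0.48 and −0.17 for Cyp51, and 0.40 and −0.29 for Dhcr7. Other synthesis enzymes with such a pair were Mvk (0.67 and −0.29) and Fdps (0.61 and −0.21). The same direction was seen for Scap (0.31 and −0.34), Erlin1 (0.28 and −0.21), Scarb1 (0.32 and −0.24), Gramd1a (0.31 and −0.16), Acly (0.21 and −0.12), Acss2 (0.78 and −0.28) and Fads2 (0.27 and −0.41). The opposite direction, with Cripto KO lower in F/A and higher in serum/LIF, was seen for Abca1 (−0.52 and 1.44), Soat2 (−1.56 and 0.45), Soat1 (−0.15 and 0.48), Nus1 (−0.20 and 0.71), Pggt1b (−0.35 and 0.20), Mbtps2 (−0.50 and 0.36) and Fasn (−0.20 and 0.16). For F/A against serum/LIF, Mvk stood at −0.35 in WT and 0.62 in Cripto KO, and Scarb1 at −0.39 and 0.17.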

How the results depend on the processing

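The direction of each of the 28 member changes was kept under scaling by library total, TMM or DESeq2 factors, 5 added to each value, halved F/A Cripto KO counts and a running median over median transcript length removed. With that trend taken over the longest transcript instead, an alternative added after seeing the data, Fdft1 in WT turned from −0.15 to 0.04 and Lss from 0.23 to −0.37, as did Lss in Cripto KO, from 0.01 to −0.27. The members' median in WT became 0.97 and 0.96 with the 2 trends removed. In the WT transition Lrp1, Npc1, Srebf1, Hsd17b7 and Cyp7b1 fell under 2-fold with the trend over the longest transcript removed, at 0.70, 0.74, 0.96, 0.98 and −0.81. With the trend over median transcript length removed, Insig1, Scd1, Npc1 and Fntb did so in WT, at 0.97, 0.86, 0.81 and −0.99. Members at least 1.5-fold higher numbered 5 in Cripto KO, and those at least 3-fold higher 0 in WT and 1 in Cripto KO. On the 6 lists, 52, 56, 11 and 6 genes passed 1.5-fold and 12, 13, 1 and 0 passed 3-fold (WT transition, Cripto KO transition, F/A, serum/LIF). Over all kept genes 4217, 3921, 705 and 326 passed 3-fold, 11477, 10152, 5913 and 4002 passed 2-fold with no filter, and for the genotype comparisons in F/A and serum/LIF 4050 and 2234 passed 1.5-fold and 763 and 305 passed 2-fold at a mean of at least 50 counts. With 5 added, 403 passed in serum/LIF. The cause was not tested where the alternative's own threshold or filter does not give it. With 1 library per condition no replicate could be left out and no spread between cultures is known. No paired analysis was possible because each condition has 1 library. Low counts limit Nr1h3, Ch25h, Lcat, Gramd1c and Thrsp, and Soat2 and Abcg1 in F/A.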
